A study of Mus musculus with 33 samples.

Results

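SOX proteins are transcription factors that bind DNA through an HMG box, and 8 of them that are studied in the neural crest were followed here: Sox2, Sox4, Sox11, Sox5, Sox6, Sox8, Sox9 and Sox10. The genes were measured on Affymetrix arrays in enteric neural crest cells (ENCCs), the migrating precursors of the neurons and glia of the gut wall, and in whole gut. Their probe sets were taken from the platform annotation wherever it gives exactly 1 gene symbol and that symbol is one of the 8. This rule gave 33 probe sets out of 34945 named ones, or 8 genes out of 18193. Sox4 had 8 probe sets, Sox5 had 7, Sox11 had 6, Sox6 had 4, Sox9 and Sox10 had 3 each, and Sox2 and Sox8 had 1 each.

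The ENCCs came from mouse embryos at embryonic day 14.5 on a C57BL/6 background that carry Wnt1-Cre and a loxP-controlled R26-YFP reporter, so that cells whose lineage expressed the Cre under the Wnt1 promoter are labelled with YFP. YFP-positive cells were sorted and grown on fibronectin with FGF and EGF. The cells of each gut filled a pair of wells: 1 received GDNF, the ligand of the receptor tyrosine kinase RET, at 50 ng/ml, and the other received none. The number that follows ENCCs in a sample title, and not its rep number, is read here as the gut number. GDNF-treated ENCCs of 9 guts were read on 13 arrays, untreated ENCCs of the same 9 guts on 12 arrays, and whole gut from wild-type embryos at the same stage, dissected from duodenum to anus, on 8 arrays. Every ENCC sample, treated or not, thus carried the Cre and the reporter, and had been sorted and cultured with growth factors, while whole gut had not. The length of culture is not stated in the labels. Neither are the litters of the embryos, nor how many embryos went into each whole gut RNA, so p-values measure the spread between these samples.

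In the developing enteric nervous system SOX factors divide the work by subgroup. The SoxB1 factor SOX2 and the SoxE factor SOX10 are kept in progenitors and glia, and SOX10, with PAX3, activates Ret. SOX8 and SOX9 are the other SoxE factors: SOX8 can partly stand in for SOX10, and SOX9 acts early in crest formation and drives cartilage genes together with the SoxD factors SOX5 and SOX6, which have no activation domain of their own. The SoxC factors SOX4 and SOX11 are best known for switching on neuronal genes as precursors leave the progenitor state.

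The deposited values are scores made within each array and not log2 intensities. On every array the values follow the normal quantiles from -4.084 to 4.084 with a median of 0, and within a batch each probe set had been centred on the 7 ENCC RNAs that were hybridised in both batches, as read from the values. A score therefore says where a gene lies on its array relative to the ENCCs: between ENCC arrays 1 unit is roughly 1 SD of the probe set among them, and levels of different genes cannot be compared. No fold change can be given. The score of a gene is the mean over its probe sets. Batch 1 held 17 ENCC arrays, and batch 2 held 8 ENCC arrays and all 8 whole guts. The untreated well of gut 3 stood apart: over probe sets its batch 2 array correlated at 0.117 with the batch 1 array of the same RNA, against 0.247 to 0.325 for the other 6 RNAs read in both batches. This r cannot say which of the 2 arrays is off, and no fit left out the batch 1 array alone. For Sox10 it was the batch 1 array that scored lowest of all ENCC arrays, at -1.65, against -0.50 in batch 2. The batch 2 array is the one called the array that stood apart below. The main differences of the 8 genes that rest on this array are given with and without it. Those on batch 2 alone include it. The other results are also given without it where leaving it out moves a count or a call.

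The sequences below are stretches from 250 bases before to 50 bases after a start that the RefSeq promoter table lists for Sox2, Sox5 and Sox6, the 3 genes whose difference between the wells had 1 sign in all 9 guts. They come from RefSeq on build GRCm38.p6, in which 6 of the 8 genes matched (not Sox9 and Sox10) with 11 promoters, of which Sox6 has 6. Sox2 is shown at chr3:34649745-34650044 on the plus strand, Sox5 at chr6:143947057-143947356 on the minus strand and Sox6, at the most upstream of its 6 listed starts, at chr7:116038695-116038994 on the minus strand. The Sox2 start is the annotated 5′ end of the gene, the Sox6 start lies 2032 bases inside the gene from that end, and the only Sox5 start in the table lies 835181 bases inside the gene, so the Sox5 window is that of an internal start. Capitals mark the letters searched on both strands: the SOX core motifs AACAAT and ACAAAG, which do not overlap here, and the CCAAT box, written ATTGG when it runs the other way.
Sox2: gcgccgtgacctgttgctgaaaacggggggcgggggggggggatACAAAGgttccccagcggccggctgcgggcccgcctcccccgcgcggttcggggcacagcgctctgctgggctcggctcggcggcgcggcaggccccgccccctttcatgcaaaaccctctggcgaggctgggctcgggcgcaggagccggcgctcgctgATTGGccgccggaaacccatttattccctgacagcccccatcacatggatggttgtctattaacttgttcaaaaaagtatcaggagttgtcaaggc
Sox5: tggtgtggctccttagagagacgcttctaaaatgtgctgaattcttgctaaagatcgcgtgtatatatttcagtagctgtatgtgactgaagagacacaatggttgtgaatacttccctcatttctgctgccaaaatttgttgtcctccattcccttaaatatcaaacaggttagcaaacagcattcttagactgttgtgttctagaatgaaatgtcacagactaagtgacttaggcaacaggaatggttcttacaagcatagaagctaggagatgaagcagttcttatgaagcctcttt
Sox6: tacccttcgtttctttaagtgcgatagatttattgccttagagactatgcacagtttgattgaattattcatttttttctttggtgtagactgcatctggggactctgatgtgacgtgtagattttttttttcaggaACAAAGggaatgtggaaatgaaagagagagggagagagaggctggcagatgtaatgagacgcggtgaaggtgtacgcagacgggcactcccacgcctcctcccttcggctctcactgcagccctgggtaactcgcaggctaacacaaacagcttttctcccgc
The Sox2 promoter holds ACAAAG at base -206 and an inverted CCAAT box at base -46, counted from the listed start. The Sox6 promoter holds ACAAAG at base -113, and none of these letters is in the window of the internal Sox5 start, which says nothing of the 5′ end of that gene. Over all 11 promoters, 6 hold ACAAAG, 6 hold CCAAT and 1 holds AACAAT, where the ACAAAG matches are those of Sox2 and of 5 starts of Sox6, while 18.7%, 37.4% and 10.7% of the 32851 promoters in the RefSeq table hold those motifs in the same order. A match describes the letters in the window and shows no binding.

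With GDNF, 6 of the 8 SOX genes fell, 1 rose (Sox5) and 1 (Sox10) did not pass the test, which was limma on the 9 within-gut differences with Benjamini-Hochberg adjustment over all genes. Over all genes 13.2% fell and 18.3% rose, 31.5% in all. The median difference of the 8 genes was -0.776 score units, against 0.005 for all genes. The fall was largest in score for Sox2 and Sox6, whose treated and untreated RNAs did not overlap, as did those of 5.55% of all genes. Sox2, Sox5 and Sox6 kept 1 sign in all 9 guts, which 17.8% of all genes did. A score is a position relative to the other probe sets of its array. Among other sources, a lower score can come from fewer cells that use a gene or from less of its RNA per cell. These arrays cannot tell such sources apart.

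**Figure D1:**
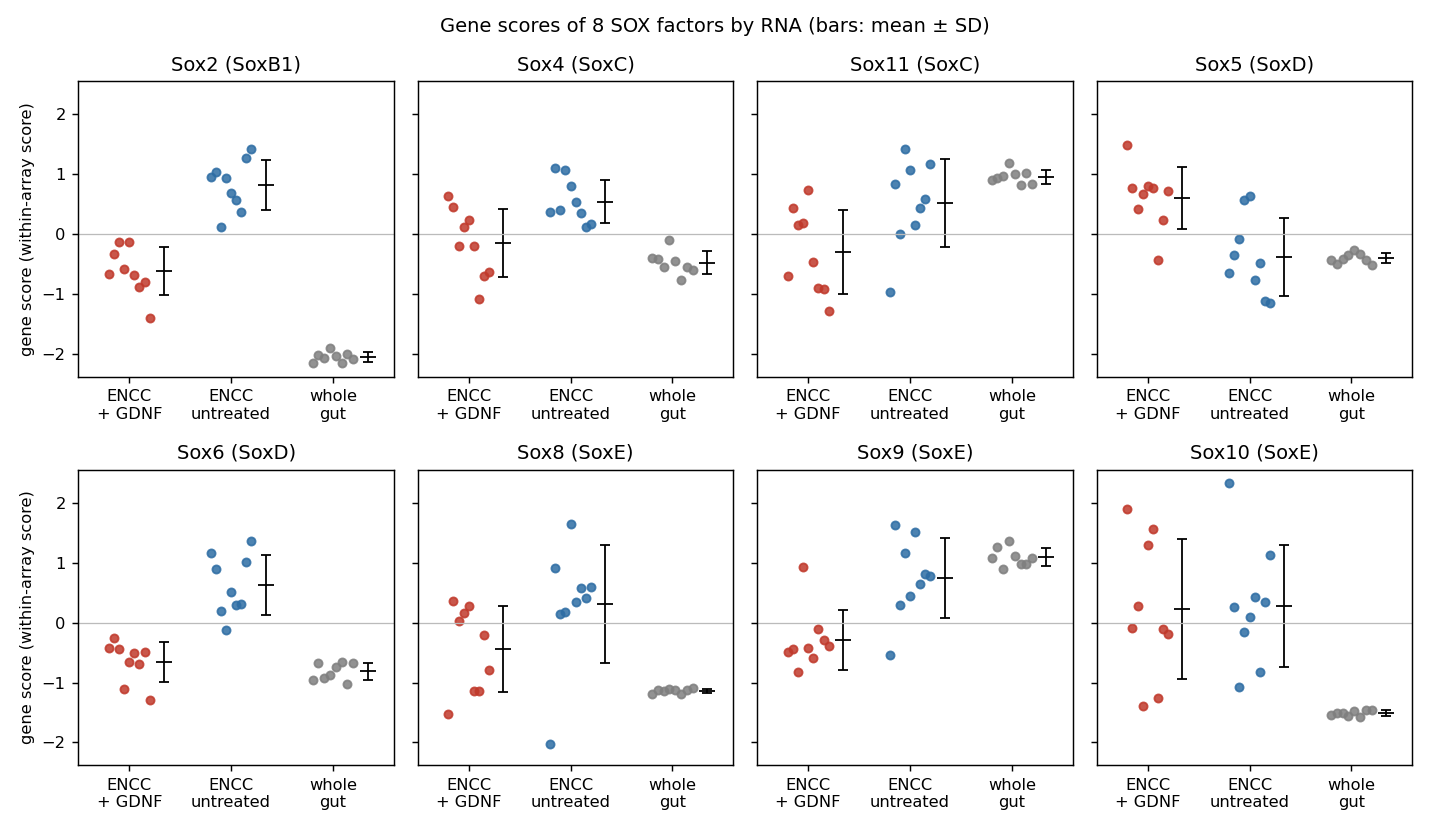
Gene score (within-array units) of each SOX gene in GDNF-treated ENCCs (9 RNAs), untreated ENCCs (9 RNAs) and whole gut (8 RNAs); a point is 1 RNA, arrays of 1 RNA averaged, and bars show the mean ± SD. Treated and untreated points separate fully for Sox2 and Sox6, Sox5 lies higher with GDNF, and for Sox2 and Sox10 all whole gut points lie below all ENCC points.

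Sox2, the SoxB1 gene that marks multipotent neural precursors and, later, glia of the gut, had scores from -1.41 to -0.125 with a median of -0.662 in treated ENCCs, against 0.120 to 1.43 with a median of 0.942 in untreated ENCCs. All 9 treated RNAs lay below all 9 untreated RNAs. The within-gut difference was -1.46 ± 0.732 (SD, n = 9 guts, SE 0.255, limma adjusted p = 0.000728) and ran from -2.84 in gut 9 to -0.248 in gut 3. Gut 3 holds the array that stood apart, and without that array gut 3 gave -1.10 and the mean difference was -1.55. Sox2 also fell on batch 1 alone (-1.502, limma adjusted p = 0.00116). The 4 guts of batch 2 alone gave -1.57, with the array that stood apart included. On batch 2 alone 0 genes of the whole table passed the adjustment by limma and 3516 had an unadjusted p under 0.05.

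The SoxC genes Sox4 and Sox11, which promote neuronal differentiation in the central nervous system, both fell. Sox4 scores ran from -1.08 to 0.634 with a median of -0.197 in treated ENCCs, against 0.111 to 1.10 with a median of 0.404 in untreated ENCCs. The groups overlapped, and the treated well lay below its partner in 8 of 9 guts, with gut 1 as the exception. The Sox4 difference was -0.680 ± 0.451 (SD, n = 9, SE 0.210, limma adjusted p = 0.0231), against -0.726 without the array that stood apart. Without gut 7 it was -0.587 with an adjusted p of 0.0661. Sox11 had scores from -1.28 to 0.742 with a median of -0.474 in treated ENCCs, against -0.970 to 1.43 with a median of 0.580 in untreated ENCCs. Its treated well lay lower in 7 of 9 guts, with guts 1 and 3 as the exceptions, and the groups overlapped widely. The gut 3 difference of 0.161 rests on the array that stood apart: without that array it was -0.806, and the treated well lay lower in 8 of 9 guts. The Sox11 difference was -0.820 ± 0.884 (SD, n = 9, SE 0.284, limma adjusted p = 0.0406), and leaving out gut 4, 6, 7, 8 or 9 raised its adjusted p above 0.05, to at most 0.0959. Without the array that stood apart the Sox11 difference was -0.927 (limma adjusted p = 0.0175).

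The SoxD genes Sox5 and Sox6, which act on the timing and subtype choice of neurons in the developing brain, moved in opposite directions. Sox5 was the only one of the 8 that rose. Its scores ran from -0.426 to 1.48 with a median of 0.722 in treated ENCCs, against -1.16 to 0.632 with a median of -0.476 in untreated ENCCs. The treated well lay higher in 9 of 9 guts, although the groups overlapped, and the difference ran from 0.050 in gut 7 to 2.13 in gut 1. Its mean was 0.973 ± 0.798 (SD, n = 9, SE 0.268, limma adjusted p = 0.0128), and 1.48 by 1423500_a_at, the Sox5 probe set that agreed best between batches. The mean was 0.964 without the array that stood apart. Sox6 had scores from -1.29 to -0.257 with a median of -0.504 in treated ENCCs, against -0.120 to 1.36 with a median of 0.522 in untreated ENCCs. All 9 treated RNAs lay below all untreated ones. The Sox6 difference was -1.29 ± 0.596 (SD, n = 9, SE 0.232, limma adjusted p = 0.000881), with gut 9 at -2.65 and the other 8 guts between -1.58 and -0.638. The Sox6 mean was -1.34 without the array that stood apart.

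The SoxE genes did not move as a group. Sox9, known for crest specification and for keeping glial and stem cells, had scores from -0.821 to 0.939 with a median of -0.425 in treated ENCCs, against -0.544 to 1.64 with a median of 0.786 in untreated ENCCs. The treated well was lower in 8 of 9 guts and gut 1 differed by 0.051. The Sox9 difference was -1.03 ± 0.699 (SD, n = 9, SE 0.249, limma adjusted p = 0.00619), and -1.15 without the array that stood apart. Sox8 scores ran from -1.52 to 0.366 with a median of -0.201 in treated ENCCs, against -2.03 to 1.65 with a median of 0.413 in untreated ENCCs. Its difference was -0.732 ± 0.786 (SD, n = 9, SE 0.265, limma adjusted p = 0.0491), lower in 8 of 9 guts, and it passed the test in 2 of the 9 fits that leave out 1 gut. Without the array that stood apart the Sox8 difference was -0.967 (limma adjusted p = 0.0191). The Sox8 difference was -1.13 on batch 1 alone, and 0.083 on batch 2 alone with that array included.

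Sox10, the gene that enteric progenitors and glia need and that is mutated in people with aganglionosis and pigment loss, had scores from -1.40 to 1.91 with a median of -0.085 in treated ENCCs, against -1.08 to 2.33 with a median of 0.260 in untreated ENCCs. The 2 groups covered almost the same range. The within-gut difference was -0.032 ± 1.03 (SD, n = 9, limma adjusted p = 0.952) with a 95% interval from -0.704 to 0.640, and the treated well was higher in 3 of 9 guts. These were guts 3, 5 and 6, with 1.35, 1.20 and 1.13, while guts 4 and 9 gave -1.24 and -1.33. Leaving out the array that stood apart gave a mean of -0.0014, with gut 3 at 1.63. The difference therefore varied more between guts than for any other of the 8 genes by its SD. Mean changes in either direction within the 95% interval remain compatible with these 9 guts.

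**Figure D2:**
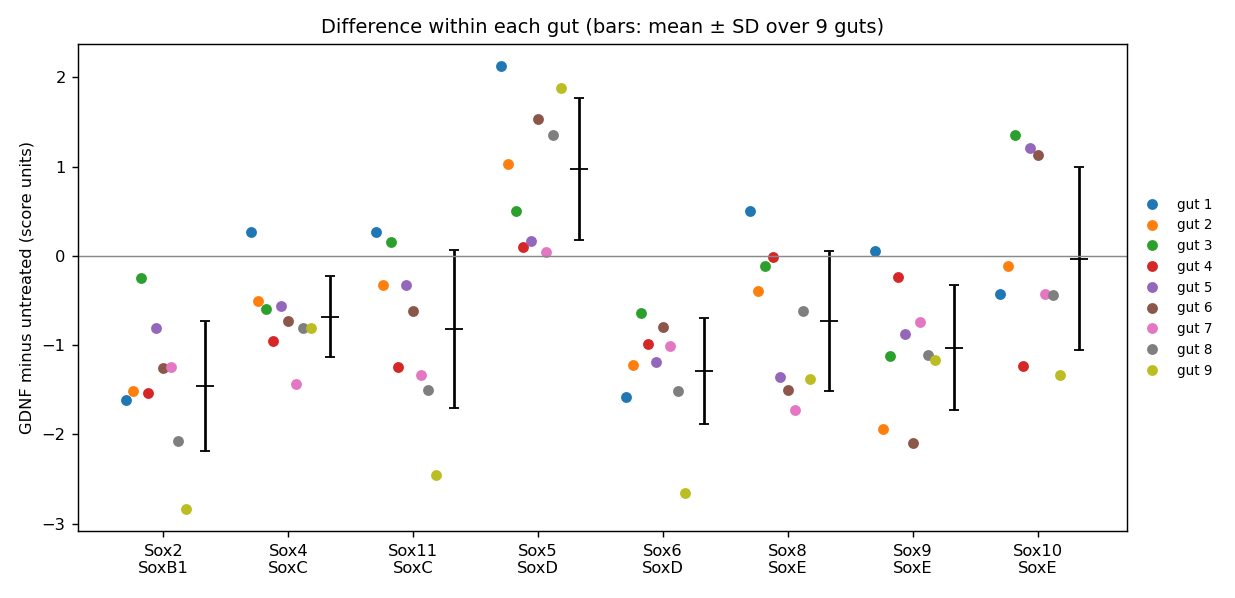
GDNF-treated minus untreated score within each of 9 guts for the 8 SOX genes, 1 colour per gut, with bars for the mean ± SD over guts; the y axis is in score units and the line marks no difference. Sox2 and Sox6 lie below 0 in all 9 guts, Sox5 above 0 in all 9, and Sox10 spreads from -1.33 to 1.35.

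Taken by batch, the 7 genes that passed also passed on the 8 guts of batch 1 alone. None did on the 4 guts of batch 2 alone. Over all genes 29.3% passed limma's adjusted test on batch 1 alone and 0 on batch 2 alone, so none passing there is not particular to the SOX genes. The arrays of both batches are part of the main fit, so passing on batch 1 alone is no independent test. The difference was -0.745 in batch 1 and -0.593 in batch 2 for Sox4, 1.03 and 1.06 for Sox5, and -1.38 and -1.34 for Sox6. It was -0.926 and -1.31 for Sox9, and -1.01 and -0.773 for Sox11, so that Sox8 alone differed in sign between the batches among the 7. The batch 2 values include the array that stood apart, and no fit of batch 2 alone left it out. For Sox8 that array scored -1.55, against 0.45 in the treated well of gut 3. In guts 2, 8 and 9 of batch 2 the treated wells lay lower for Sox8. They scored 0.53, 0.37 and -0.12, against 0.92, 0.70 and 0.83 in the untreated wells. For Sox2 too the treated well of gut 3 lay higher in batch 2, at 0.030 against -0.57.

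The guts differed in how many of the 8 genes were lower with GDNF. In gut 1 the treated well was lower for 3 genes, with a median difference of 0.161 over the 8, and in guts 2, 4, 7, 8 and 9 it was lower for 7 genes. Gut 9 had the lowest median, -1.36. Of the 28 pairs among the 8 genes, 0 had a correlation of the 9 within-gut differences that passed Benjamini-Hochberg adjustment of the exact two-sided permutation p, and 4 had an unadjusted p under 0.05. The highest was Sox2 with Sox6, with Pearson r = 0.874 (exact permutation p = 0.00209, adjusted 0.0584) and Spearman rho = 0.783 (exact permutation p = 0.0172, adjusted 0.161). Without guts 3 and 9, the farthest from the Sox2 median, its r was 0.546. Sox2 with Sox10 gave r = 0.805 (exact permutation p = 0.00498, adjusted 0.0697) and rho = 0.900 (exact permutation p = 0.00203, adjusted 0.0568), and r = 0.652 without guts 3 and 9. The genes share the arrays from which these differences were taken. Without the array that stood apart 0 of the 28 pairs passed for r or rho and 5 had an unadjusted p of r under 0.05, with r = 0.867 for Sox2 with Sox6 (exact permutation p = 0.00902, adjusted 0.207) and r = 0.733 for Sox2 with Sox10 (exact permutation p = 0.0172, adjusted 0.207). The SoxD genes Sox5 and Sox6 gave r = -0.601 (exact permutation p = 0.0676, adjusted 0.215) and rho = -0.567 (exact permutation p = 0.121, adjusted 0.422), and the SoxC genes Sox4 and Sox11 gave r = 0.640 (exact permutation p = 0.0633, adjusted 0.215) and rho = 0.800 (exact permutation p = 0.0138, adjusted 0.161). Without guts 1 and 7, r was -0.606 for the SoxD and 0.706 for the SoxC genes, and without the array that stood apart it was -0.589 and 0.643.

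Against whole gut a SOX gene was either higher in treated ENCCs, untreated ENCCs or both, or lower in treated ENCCs only. The arrays of batch 2 were compared, 4 of treated ENCCs with 8 of whole gut and 4 of untreated ENCCs with the same 8. ENCC scores spread more than whole gut scores for all 8 genes. For Sox8 the SD was 1.19 in untreated ENCCs and 0.037 in whole gut. The fit used 1 pooled SD per gene, while the smaller group had the wider spread. Its SEs, intervals and p-values against whole gut therefore tend to overstate the certainty. Treated ENCCs had 4 of the 8 genes higher and 2 lower, while 25.1% of all genes were higher and 26.0% lower, 51.0% in all. Untreated ENCCs had 5 higher and 0 lower by limma's adjusted test, with 0 lower also at an unadjusted p under 0.05, against 19.8% and 22.8% of all genes, 42.6% in all. The groups did not overlap for 6 genes in treated and 4 in untreated ENCCs, against 34.9% and 27.6% of all genes. The median difference of the 8 genes was 0.586 in treated and 1.09 in untreated ENCCs, against -0.015 and -0.011 for all genes.

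Sox2, Sox8 and Sox10 were higher than whole gut in ENCCs with and without GDNF. Sox2 scored -0.46, 0.030, -0.61 and -1.29 in the treated wells of guts 2, 3, 8 and 9 and 1.05, -0.57, 1.70 and 1.76 in the untreated wells of the same guts, against a mean of -2.06 ± 0.083 (SD, n = 8) in whole gut. Every ENCC array lay above every whole gut array. The Sox2 difference was 1.48 (SE 0.193, limma adjusted p = 3.1e-05) for treated and 3.04 (SE 0.335, limma adjusted p = 7.2e-06) for untreated ENCCs, and 3.56 without the array that stood apart. Sox10 scored 0.14, 0.57, -0.33 and -0.22 in treated and 0.26, -0.50, 0.22 and 0.63 in untreated wells, against -1.51 ± 0.045 (SD, n = 8) in whole gut. All 8 ENCC arrays lay above the tissue here too. The Sox10 difference was 1.55 (SE 0.157, limma adjusted p = 3.3e-06) for treated and 1.66 (SE 0.190, limma adjusted p = 1.0e-05) for untreated ENCCs, or 1.88 without the array that stood apart. Sox8 scored 0.53, 0.45, 0.37 and -0.12 in treated and 0.92, -1.55, 0.70 and 0.83 in untreated wells, against -1.14 ± 0.037 (SD, n = 8) in whole gut. Of these 8 ENCC arrays, the untreated well of gut 3 was the one below the tissue. The Sox8 difference was 1.44 (SE 0.132, limma adjusted p = 1.3e-06) for treated ENCCs and 1.36 (SE 0.359, limma adjusted p = 0.00694) for untreated ENCCs, or 1.95 without that array.

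Sox4 and Sox6 were higher than whole gut in untreated ENCCs, and Sox5 in treated ENCCs, while the test between the wells is the within-gut comparison above. Sox4 scored 0.60, -0.02, -0.57 and -0.98 in treated and 1.10, 0.17, -0.02 and 0.15 in untreated wells, against -0.479 ± 0.195 (SD, n = 8) in whole gut. The untreated wells lay above the tissue, and the treated ones overlapped it. Its difference was 0.235 (95% interval -0.289 to 0.760, limma adjusted p = 0.448) for treated and 0.83 (limma adjusted p = 0.00571) for untreated ENCCs, or 0.889 without the array that stood apart and 1.42 by 1419155_a_at, the Sox4 probe set that agreed best between batches. Of the 8 Sox4 probe sets 5 were higher in untreated ENCCs and 1 was lower, 1419157_at (-0.954, limma adjusted p = 0.0189). Sox6 scored -0.31, -0.50, -0.19 and -1.05 in treated and 0.91, -0.32, 1.24 and 1.48 in untreated wells, against -0.815 ± 0.146 (SD, n = 8) in whole gut. The untreated wells all lay above the tissue, and the treated ones overlapped it. Its difference was 0.301 (95% interval -0.053 to 0.656, limma adjusted p = 0.145) for treated and 1.64 (limma adjusted p = 2.1e-04) for untreated ENCCs, or 2.03 without the array that stood apart. Of the 4 Sox6 probe sets 3 were higher in treated ENCCs, and 1426018_a_at gave -0.423 (limma adjusted p = 0.263). All 4 were higher in untreated ENCCs. Sox5 scored 0.68, 0.48, 0.055 and 0.65 in treated and -0.36, -0.11, -1.19 and -0.74 in untreated wells, against -0.404 ± 0.087 (SD, n = 8) in whole gut. Here the treated wells all lay above the tissue. Its difference was 0.870 (limma adjusted p = 1.4e-04) for treated and -0.194 (95% interval -0.604 to 0.217, limma adjusted p = 0.442) for untreated ENCCs, or -0.358 (limma adjusted p = 0.0662) without the array that stood apart. Of the 7 Sox5 probe sets 6 were higher in treated ENCCs and 1 was lower, 1432190_at (-0.879, limma adjusted p = 0.0437).

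Sox9 and Sox11 were lower than whole gut in treated ENCCs. Sox9, which epithelial progenitors and mesenchyme of the gut also express, scored -0.30, -0.26, -1.12 and -0.081 in treated and 1.64, -0.26, 1.01 and 1.09 in untreated wells, against 1.10 ± 0.154 (SD, n = 8) in whole gut. All 4 treated arrays lay below the tissue, with a difference of -1.54 (SE 0.182, limma adjusted p = 1.4e-05). Untreated ENCCs differed by -0.226 (95% interval -0.804 to 0.353, limma adjusted p = 0.530), and by 0.152 without the array that stood apart. Sox11 scored 0.50, 0.34, -0.59 and -1.05 in treated and 0.83, -0.79, 0.80 and 1.44 in untreated wells, against 0.959 ± 0.115 (SD, n = 8) in whole gut. All 4 treated arrays lay below the tissue, and the untreated ones overlapped it. Its difference was -1.16 (SE 0.248, limma adjusted p = 0.00158) for treated and -0.388 (95% interval -1.04 to 0.261, limma adjusted p = 0.324) for untreated ENCCs, or 0.066 for untreated ENCCs without the array that stood apart. Both comparisons use the same 8 whole gut arrays, so an array of the tissue that differs would move both, and whole gut was uncultured tissue that holds many other cell types.

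**Figure D3:**
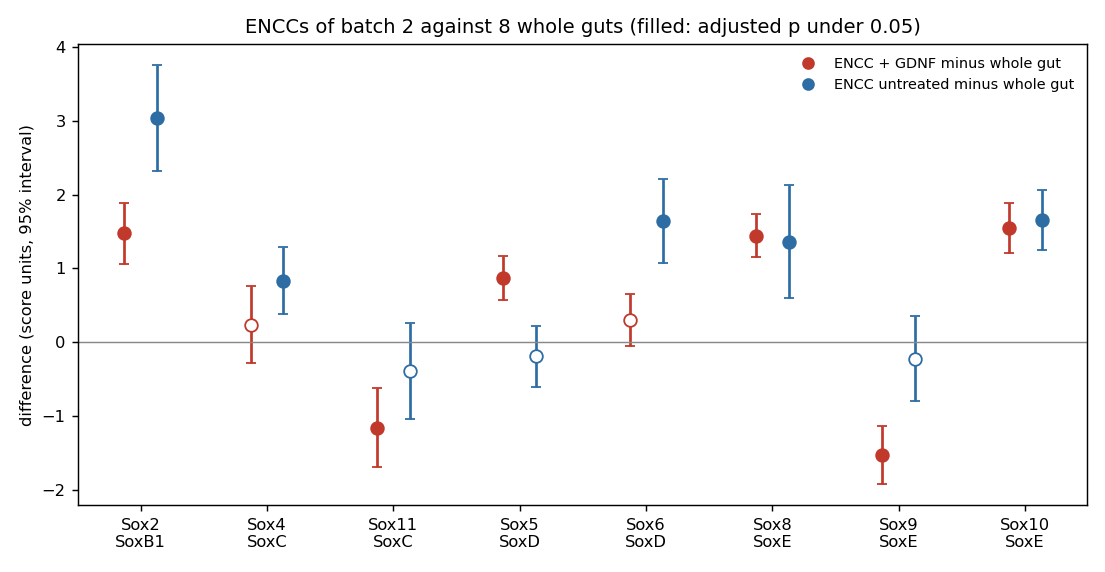
Difference in gene score from whole gut (8 arrays) for GDNF-treated ENCCs (4 arrays) and untreated ENCCs (4 arrays) of batch 2, with 95% intervals; filled points passed an adjusted p of 0.05. Sox2, Sox8 and Sox10 lie above 0 in both, and Sox9 and Sox11 lie below 0 with a filled point only for treated ENCCs.

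Probe sets of 1 gene did not always follow each other. With GDNF 4 of the 33 probe sets rose, all of Sox5, and 14 fell, against 13.8% and 11.5% of all probe sets, 25.3% in all. For 4 of the 7 Sox5 probe sets the difference lay between 1.47 and 1.49, while 1432190_at gave -0.820 (limma adjusted p = 0.107) and correlated at -0.297 between batches. All 4 Sox6 probe sets fell, with differences from -1.59 to -0.998. Of the 8 Sox4 probe sets 5 fell, with differences from -1.70 to -0.984, and the other 3 gave -0.122 (1419157_at), 0.073 (1443778_at) and 0.359 (1458332_x_at), none past the test. The 6 Sox11 probe sets all had negative differences, from -0.998 to -0.630, and 2 of them passed. Of the 3 Sox9 probe sets 1424950_at and 1451538_at fell, with differences of -1.34 and -1.27, and 1433889_at gave -0.467 (limma adjusted p = 0.335). The 3 Sox10 probe sets gave 0.061, -0.088 and -0.069. When the array that stood apart was left out, 4 probe sets rose and 18 fell. On its own among all probe sets the only Sox8 probe set did not pass (limma adjusted p = 0.0852).

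The agreement of a probe set between the batches, the Pearson r over the 7 RNAs read in both, was given as a description. Its median was 0.694 over the 33 probe sets, against 0.370 over all named probe sets, and it exceeded 0.5 for 22 of the 33, against 40.9% of all named probe sets. The 7 RNAs are of treated and untreated wells, so a response to GDNF raises this r by itself and favours responding probe sets among those that agreed best. Without the untreated well of gut 3 the median over the 33 was 0.891 and 25 exceeded 0.5. That well was picked because its 2 arrays disagreed, so a rise can follow from the choice itself. No value over all named probe sets is given beside it. The Sox8 probe set 1435438_at had an r of 0.951 over 6 RNAs without that well and -0.520 over all 7, since the well scored 1.85 in batch 1 and -1.55 in batch 2. By contrast, the Sox10 probe set 1424985_a_at went from 0.768 over all 7 to -0.019 without that well. The Sox9 probe set 1433889_at had -0.734 and -0.759. In all, 4 of the 33 were below 0 over all 7 RNAs and 3 without that well. By gene score the r was 0.234 and 0.345 for Sox9, and 0.734 and 0.558 for Sox10. Against whole gut the Sox10 probe sets differed widely in size. Treated ENCCs gave 2.82 for 1451689_a_at, 1.47 for 1424985_a_at and 0.352 for 1425369_a_at, and untreated ENCCs gave 2.91, 0.858 and 1.21 for the same probe sets. In all, 14 probe sets were higher and 9 lower than whole gut in treated ENCCs (20.5% and 22.8% of all probe sets, 43.2% in all), and 13 higher and 2 lower in untreated ENCCs (17.0% and 17.2% of all probe sets, 34.2% in all), or 15 and 4 without the array that stood apart.

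**Figure D4:**
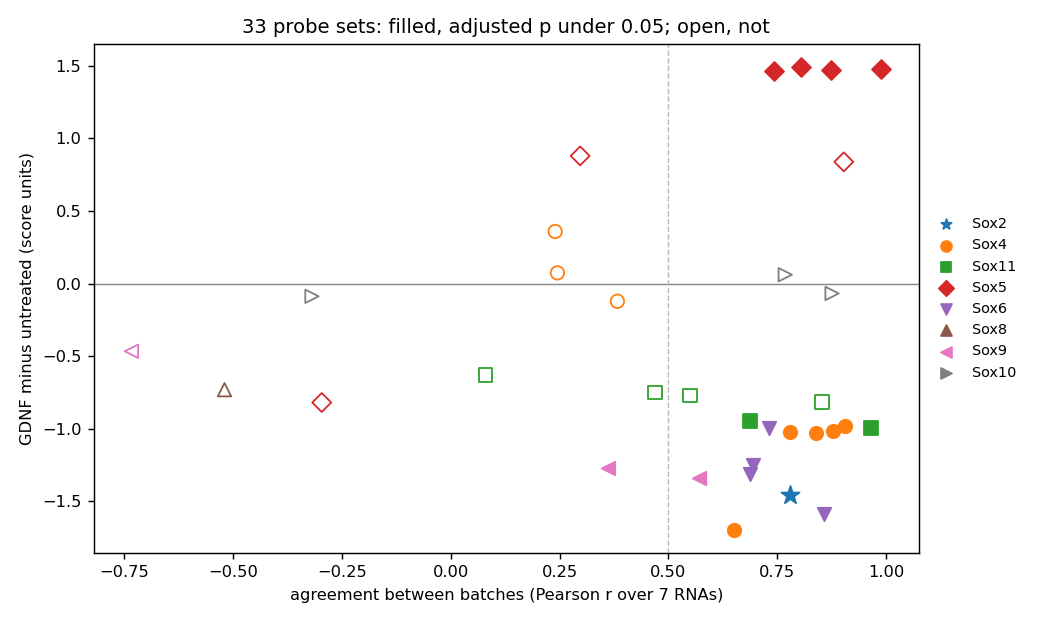
GDNF-treated minus untreated score (y axis, score units) of each of the 33 probe sets against its Pearson r between batches over 7 RNAs (x axis); symbols stand for genes, filled ones passed an adjusted p of 0.05 and the dashed line marks r = 0.5. The 4 filled Sox5 points lie near 1.5 and the filled points of the other genes lie below 0; a response to GDNF itself raises the r on the x axis.

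**Figure D5:**
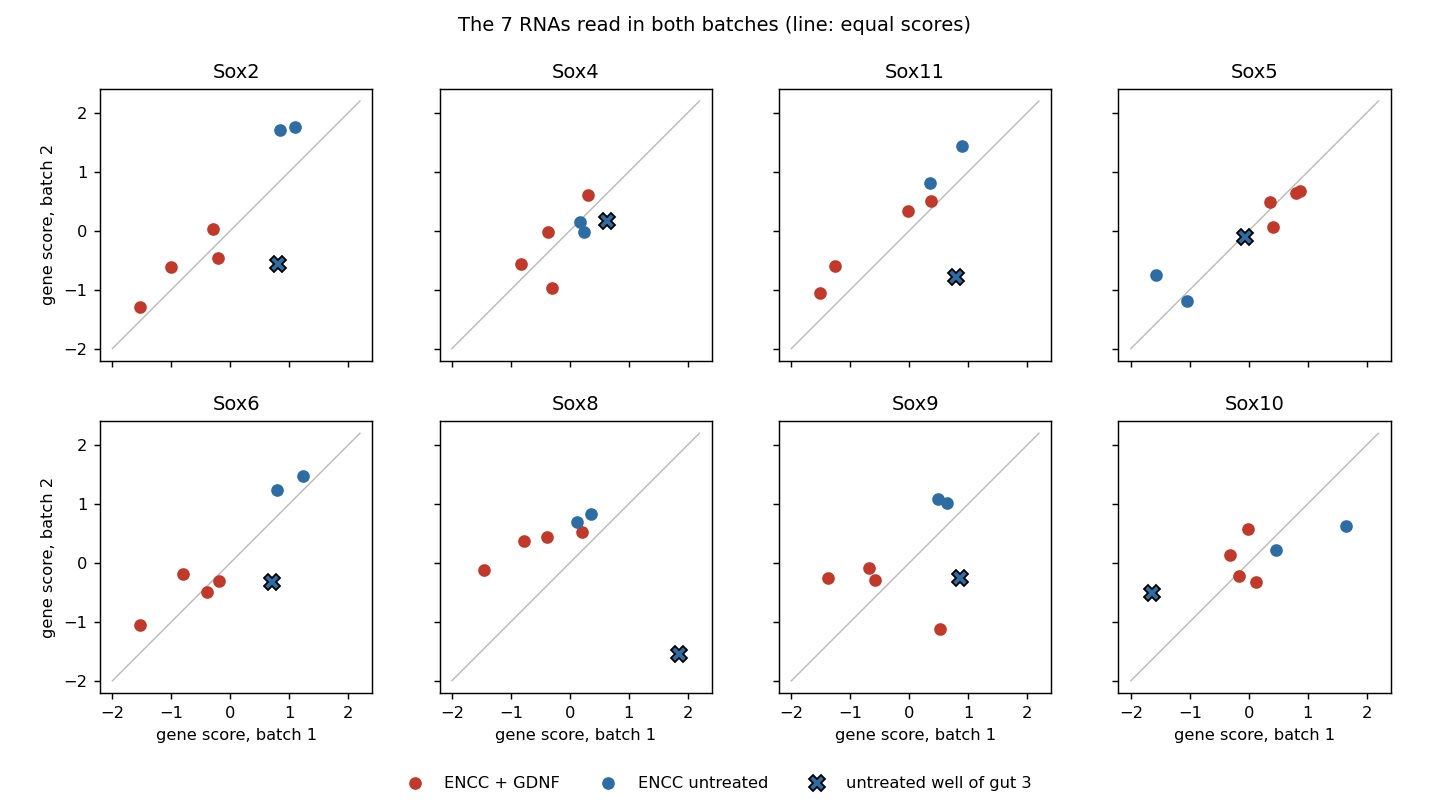
Gene score in batch 2 against batch 1 for the 7 ENCC RNAs read in both, with GDNF-treated wells, untreated wells and, as a cross, the untreated well of gut 3; the line marks equal scores. The cross lies far below the line for Sox8, at 1.85 in batch 1 and -1.55 in batch 2.

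Over the 18 ENCC RNAs the genes whose scores ran most like each SOX gene were found by Pearson r, as a description in which the RNAs share guts, batches and treatment. Without the array that stood apart, 18 of the 24 genes named here were again among the 3 most alike. For Sox2 they were Slitrk6 (0.968), Chn2 (0.943) and Ltbp3 (0.940), and for Sox6 they were Jun (0.957), Gadd45a (0.929) and Rock1 (0.928). Sox5 ran most like Depdc7 (0.943), Mff (0.909) and Bche (0.906), the last of which encodes butyrylcholinesterase. For Sox10 they were Dbi (0.932), Fbxo7 (0.909) and Cnp (0.886), and Dbi and Cnp are used as markers of glia. Sox4 ran most like Pigt (0.916), Sidt2 (0.912) and Gab1 (0.908), and Sox11 most like Tmem132a (0.922), Ivd (0.908) and Pik3ip1 (0.902). For Sox9 they were Lrrk1 (0.913), Ccnd2 (0.910), which encodes a D-type cyclin, and Gxylt2 (0.897), and for Sox8 they were Chsy1 (0.939), Snhg6 (0.889) and Aamdc (0.881).

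Genes that work with these factors were counted by list. Of 11 SOX genes outside the 8, which had a median difference of -0.035 with GDNF, 2 passed the test and both fell. They were Sox13 (-1.05, limma adjusted p = 0.0132), the third SoxD gene, and Sox7 (-0.749, limma adjusted p = 0.0394), an endothelial SoxF gene. The other SoxF genes, Sox17 and Sox18, were lower than whole gut in treated ENCCs (-1.98 and -1.62) and in untreated ENCCs (-1.62 and -2.21), all with a limma adjusted p below the threshold. Of 10 neural progenitor genes that accompany Sox2, 5 fell and 1 rose with GDNF, and the median of the list was -0.602. Nes, which encodes the intermediate filament nestin, fell by 1.24 (lower in 9 of 9 guts, limma adjusted p = 0.00351) and Prom1 by 1.09, while Fabp7, a fatty acid binding protein of radial glia, rose by 1.60.

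Of 11 measured neuronal genes described with Sox4 and Sox11, 8 rose with GDNF and the other 3 did not pass, while Sox4 and Sox11 themselves fell. Elavl3, an RNA-binding protein of neurons, averaged 0.868 ± 0.349 in treated and -1.18 ± 0.445 in untreated ENCCs (SD, n = 9 each), a difference of 2.04 (limma adjusted p = 6.5e-05) that was positive in all 9 guts. Tubb3, the neuronal tubulin, differed by 1.80 (limma adjusted p = 7.7e-05), and Elavl4, by -0.147, did not pass. The median difference of the list was 1.41, and without the array that stood apart 8 rose and 1 fell (Tead2, -0.845, named after its value was seen). Of 8 measured enteric glial genes, Sox10 among them, Fabp7 and Gfap rose (1.60 and 1.13), Cryab and Cdh19 fell (-1.10 and -0.911), and the other 4 did not pass, with a list median of -0.062. All 8 of these glial genes were higher in treated ENCCs than in whole gut and 6 of 8 were higher in untreated ENCCs (7 without the array that stood apart, with Fabp7 added), with Cdh19 at 2.69 and 3.88 and S100b, a calcium-binding protein of glia, at 1.44 and 1.96. With GDNF S100b differed by -0.481 (limma adjusted p = 0.260). Of 12 measured genes described as SOX10 targets in crest, Schwann cells or melanocytes, 1 rose with GDNF (Pou3f1, 1.40) and 1 fell (Mitf, -1.08), with a list median of 0.022, against 1 and 2 without the array that stood apart, where Ednrb (-0.910, named after its value was seen) also fell. Ret, a SOX10 target that encodes the GDNF receptor, differed by 0.698 with GDNF (limma adjusted p = 0.119) and was higher than whole gut by 2.61 in treated and 1.80 in untreated ENCCs. Of 11 cartilage genes driven by Sox9 with Sox5 and Sox6, 1 fell with GDNF (Col11a1, -1.27) and 10 did not pass, with a list median of 0.168.

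Markers of other cells of the gut were followed beside these values. All 10 epithelial markers were lower in ENCCs than in whole gut, with and without GDNF, and the mean score of the list ran from -0.264 to 0.537 in treated and from -0.422 to 0.989 in untreated RNAs, against 2.63 to 2.69 in whole gut. All 8 endothelial markers were lower as well, and 7 of 8 smooth muscle markers in both comparisons. For macrophages 6 of 8 were lower in treated and 7 of 8 in untreated ENCCs, and Adgre1, higher in untreated ENCCs by 1.96, was the exception. Of 11 mesenchymal markers 9 were lower in treated ENCCs, and 6 lower and 1 higher in untreated ENCCs (6 and 3 without the array that stood apart, with Pdgfrb and Twist1 added, both named after their values were seen). The defining markers were lower than whole gut in treated and untreated ENCCs alike, with differences of -2.36 and -2.06 for epithelial Epcam, -1.61 and -3.05 for endothelial Pecam1, -1.27 and -0.677 for smooth muscle Acta2, -2.36 and -2.16 for macrophage Csf1r, and -2.19 and -1.06 for mesenchymal Pdgfra. A score has no zero, so an absence of these cells cannot be read from it. With GDNF 5 of the 11 mesenchymal markers fell, among them Osr1 (-1.76) and Col3a1 (-1.40), with a list median of -0.580, and their mean score ran from -1.07 to 0.527 in treated and from -0.342 to 0.940 in untreated RNAs. Of the 8 endothelial markers Pecam1 rose (1.34), of the 10 epithelial ones Krt19 rose (1.58), of the 8 macrophage ones Adgre1 fell (-0.963), and of the 8 smooth muscle ones 0 passed limma's adjusted test and 1 had an unadjusted p under 0.05. Of 6 measured ribosomal protein genes 5 fell with GDNF, with a list median of -0.987 and with Rps19 (-1.31) and Rpl4 (-1.25) lowest, and their mean score differed by -1.71 to -0.493 over the 9 guts. All 6 fell without the array that stood apart. Among the defining markers Epcam (-0.265), Acta2 (-0.802), Pdgfra (-0.121) and Csf1r (-0.135) did not pass with GDNF. These lists moved in the same wells as the SOX genes, and their part in the SOX differences was not tested.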

How the data were processed

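Whole-transcriptome RNA levels were read on 33 Affymetrix arrays. The submitters' processing notes name RMA, with no version. The deposited values are scores: per the values themselves, each array had been ranked to normal quantiles (largest deviation 5e-06) after a centring on the 7 ENCC RNAs read in both batches, a step that no label records. Over probe sets, the SD of the mean over those RNAs was 0.0585 (batch 1) and 0.117 (batch 2), against 0.378 for independent arrays. Intensities are thus not kept, dim probe sets could not be filtered out, and the number of arrays limits the precision.

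The 64 control probe sets were left out. The platform annotation gives exactly 1 symbol to 34958 of the 45101 probe sets, several to 932 and none to 9211, and the last 2 kinds were not named. A gene score was the mean of its probe sets. For GDNF, the untreated well was subtracted from the treated well within gut and batch, guts 3, 8 and 9 entered as the mean of both batches, and limma (3.58.1, R 4.3.3, statmod 1.5.0) (lmFit, eBayes) was run on the 9 differences. ENCCs were compared with whole gut by limma on batch 2. P-values were adjusted by Benjamini-Hochberg over 18193 genes or 45037 probe sets, with a threshold of 0.05. The fit was tested on simulated data. For the comparison with whole gut these had the same SD in both groups, so the unequal spread of the real groups was not covered. The members, gene lists and tests were chosen with earlier results of these data known. The rule for named genes took all 8 members, of each list up to 2 genes with the largest positive and up to 2 with the largest negative difference among those past the threshold, the 3 genes most like each member, and the defining markers Epcam, Acta2, Pdgfra, Pecam1, Csf1r, Elavl3, Elavl4, S100b and Ret. Of the list genes that it takes against whole gut, only some are printed. Other genes were not analysed here.

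That the wells of 1 gut form a pair comes from the treatment protocol. The deviations of such wells from their group means correlated at 0.025 to 0.305 in batch 1 and 0.051 to 0.138 in batch 2. Alternatives were the best-agreeing probe set or the median in place of the mean, no pairing, each batch alone, all arrays in 1 fit, hybridisation controls as a covariate, robust eBayes, and leaving out each replicate. Figures were drawn with matplotlib 3.10.9 in Python 3.11.15.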

Additional observations from a re-analysis of the deposited data

Results flagged for a closer look

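Samples far from the others of their group were looked for in 32 groups of gene scores or within-gut differences of the 8 SOX genes, and 3 were found with Dixon's test, which flags about 1 in 20 groups by chance. The Sox6 difference between the GDNF-treated and the untreated well was -2.65 in gut 9, against -1.58 to -0.638 in the other 8 guts. The Sox9 score of the treated well of gut 4 was 0.939, against -0.821 to -0.100 in the other 8 treated wells. The Sox8 score of the untreated well of gut 1 was -2.03, against 0.146 to 1.65 in the other 8 untreated wells.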

How the results depend on the processing

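Of 400 values of single SOX genes under an alternative, 359 kept their direction and their side of the threshold, 25 lost it, 4 gained it and 12 turned in sign. On batch 2 alone 0 SOX genes and 0 of their probe sets rose or fell with GDNF, as 0 genes of the whole table passed limma's adjusted test there, with 3516 at an unadjusted p under 0.05. Without the replicate block (wells not paired by gut), Sox8 (-0.750, limma adjusted p = 0.156) and Sox11 (-0.828, limma adjusted p = 0.0672) no longer passed, and the pairing changed no other call of the 8 genes. Leaving out 1 gut at a time gave 3 to 6 SOX genes that fell, with 3 without gut 7, and a Sox10 difference of -0.205 to 0.130. Sox8 differed by 0.083 on batch 2 alone, with the array that stood apart included. Sox8 lost its call when every gene was read by its best-agreeing probe set (limma adjusted p = 0.0618). Sox8 has only 1 probe set, so its difference stayed at -0.732 while its SE went from 0.265 to 0.286. Treated ENCCs minus whole gut for Sox4 ran from -0.045 to 0.481 with 1 sample left out. Untreated ENCCs minus whole gut gave 1 lower SOX gene with the median over probe sets (Sox9, -0.669), and 0 lower probe sets with ENCC arrays of both batches, 1 with robust eBayes, and 1 to 4 with 1 sample left out. For untreated ENCCs minus whole gut, Sox5 was 0.047 with the best-agreeing probe set, 0.026 with both batches and -0.358 to 0.0025 with 1 sample left out. Sox9 ran from -0.483 to 0.152 and Sox11 from -0.678 to 0.066, each highest without the untreated well of gut 3. Treated Sox6 passed against whole gut with the best-agreeing probe set (0.398), the median (0.436) or without gut 9 (0.482). The cause was not tested. The agreement between batches without the untreated well of gut 3, and the lists, signs by gut, correlations and likeness without its batch 2 array, were alternatives chosen after seeing the data.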
